A study of Mus musculus with 6 samples.

Results

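The secreted Wnt antagonists are proteins that cells release and that keep Wnt ligands from signalling. The 10 mouse genes described here were chosen by name out of 44788 gene symbols in the table. They are those of the secreted Frizzled-related proteins (Sfrp1, Sfrp2, Sfrp4, Sfrp5 and Frzb), 3 Dickkopf proteins (Dkk1, Dkk2 and Dkk3), Wif1 and Sost. All 10 were in the table, 9 had at least 1 count in some library, and 7 had enough counts to be tested between genotypes, among 14550 tested genes. The samples were tail tendons of 3-week-old C57BL/6 mice, 3 libraries from wild-type (WT) mice and 3 from mice lacking both copies of Mkx (Mkx-/-), the gene of the tendon transcription factor Mohawk. The labels give the age as 3 weeks, where the published text gives another. They number the replicates without saying whether each was a single animal, so the p-values below measure the spread between these libraries.

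Wnt proteins bind Frizzled receptors and the co-receptors Lrp5 and Lrp6, and in the canonical branch this frees beta-catenin to enter the nucleus and switch on target genes. Secreted Frizzled-related proteins and Wif1 bind the Wnt ligands themselves, whereas Dkk1, Dkk2 and the osteocyte product sclerostin, encoded by Sost, bind the Lrp co-receptors. Dkk3 is a diverged member whose part in Wnt signalling varies with the cell type. The antagonists are studied in skeletal tissue because canonical Wnt signalling promotes bone formation.

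Promoters from RefSeq (build GRCm38.p6) were matched for 7 members, Sfrp2, Sfrp5, Frzb, Dkk1, Dkk2, Wif1 and Sost. Sfrp1, Sfrp4 and Dkk3 had no entry in the promoter table. Of these windows, 4 are shown from both ends of the range of levels measured below: Wif1, the most abundant member, Sfrp5, the most abundant secreted Frizzled-related gene, and Dkk1 and Sost, which had almost no reads. Each runs 5' to 3' on the gene's strand, from 250 bases before the annotated start to 50 after it, with CG dinucleotides in capitals. They lie at chr10:121033754-121034053 on the plus strand (Wif1), chr19:42202203-42202502 on the minus strand (Sfrp5), chr19:30549447-30549746 on the minus strand (Dkk1) and chr11:101966966-101967265 on the minus strand (Sost).
Wif1: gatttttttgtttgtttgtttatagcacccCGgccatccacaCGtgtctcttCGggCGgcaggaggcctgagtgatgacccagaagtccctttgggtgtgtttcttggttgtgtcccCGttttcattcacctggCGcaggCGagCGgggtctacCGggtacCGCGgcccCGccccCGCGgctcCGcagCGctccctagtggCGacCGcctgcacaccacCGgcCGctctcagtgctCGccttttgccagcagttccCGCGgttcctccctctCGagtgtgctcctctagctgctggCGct
Sfrp5: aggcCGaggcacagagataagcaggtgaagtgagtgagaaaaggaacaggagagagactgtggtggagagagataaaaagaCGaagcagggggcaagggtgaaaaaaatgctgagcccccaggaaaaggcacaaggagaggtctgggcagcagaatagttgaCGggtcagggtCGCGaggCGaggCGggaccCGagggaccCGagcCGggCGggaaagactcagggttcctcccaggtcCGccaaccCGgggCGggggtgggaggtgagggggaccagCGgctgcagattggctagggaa
Dkk1: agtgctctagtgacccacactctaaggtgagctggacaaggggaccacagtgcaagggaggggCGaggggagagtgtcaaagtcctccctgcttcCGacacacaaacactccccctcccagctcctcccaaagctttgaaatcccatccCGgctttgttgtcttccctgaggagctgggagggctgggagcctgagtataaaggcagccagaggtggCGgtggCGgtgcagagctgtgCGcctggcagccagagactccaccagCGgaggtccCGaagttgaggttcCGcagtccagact
Sost: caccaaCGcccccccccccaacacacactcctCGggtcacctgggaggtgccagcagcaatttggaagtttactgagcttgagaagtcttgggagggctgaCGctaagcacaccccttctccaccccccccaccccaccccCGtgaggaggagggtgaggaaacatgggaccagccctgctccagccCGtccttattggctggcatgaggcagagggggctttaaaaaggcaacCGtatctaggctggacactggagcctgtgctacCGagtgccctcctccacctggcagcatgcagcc
These windows held 25 CG dinucleotides for Wif1, 15 for Sfrp5, 9 for Dkk1 and 7 for Sost, against a median of 7 over 32851 mouse promoters of 300 bases. The other 3 matched members had 22 (Sfrp2), 20 (Frzb) and 11 (Dkk2). The order of CG content was not the order of expression, since the Sfrp2 window was among the richest in CG and Sfrp2 had few reads. Searched on both strands, ATCAAAG, a core sequence bound by the TCF and LEF factors of the Wnt pathway, was in 0 of the 7 windows and in 3.73% of all promoters. TATAAA was in those of Dkk1, Dkk2 and Wif1 and in 13.6% of all promoters, and GGGCGG was in those of Sfrp5, Frzb, Dkk2 and Wif1 and in 35.7% of all. The start sites used in these tendons were not measured.

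The libraries held between 10835070 and 14160301 counts. Mkx fell from 138 ± 4.92 CPM in WT to 45.7 ± 9.68 CPM with the knockout (SD, n = 3 each, where CPM is the count scaled to a common library size), and its log2 fold change was -1.60 (standard error 0.16, edgeR adjusted p = 0.00183). Reads on Mkx remained in every Mkx-/- library. Among all tested genes, 275 (1.89%) were called higher and 193 (1.33%) lower in Mkx-/- tendons, where a call needed both an adjusted p below 0.05 and a change of more than 1 on the log2 scale. One WT library came from a male and the other 5 libraries from females, judged by Ddx3y, with 301 counts in WT replicate 3 and 0 elsewhere. Among the fits below that leave out 1 library, only that without WT replicate 3 thus held libraries of a single sex. The part of sex in the antagonist values was not tested. Mkx-/- replicate 3 stood apart with 2548 counts on the smooth muscle gene Myh11, against 25 to 39 in the other libraries. Tendon markers, 10 genes, summed to between 382670 and 525345 CPM in WT and between 245922 and 340826 CPM in Mkx-/- libraries, so every Mkx-/- library was below every WT library. Most of this sum was Col1a1 and Col1a2, with means of 185335 and 257911 CPM in WT and 115592 and 127464 CPM in Mkx-/- tendons. The next largest in WT, Fmod and Thbs4, averaged 16300 and 4638 CPM in WT and 17564 and 11147 CPM in Mkx-/- tendons. These genes were named after their values were seen, and the sum does not stand for all 10. The part of the lower sum in the antagonist values was not tested. The markers of bone cells, the cells known for sclerostin, were close to 0, with summed levels of 2.28 to 4.97 CPM in WT and 4.15 to 5.68 CPM in Mkx-/- tendons over 9 genes, of which Mepe had 0 counts in every library and 1, Alpl, had enough counts to be tested. Alpl, named after its values were seen, averaged 1.09 ± 0.670 CPM for WT and 3.31 ± 0.674 CPM for Mkx-/- (SD, n = 3 each), with all Mkx-/- libraries above WT (log2 fold change 1.58, standard error 0.43, edgeR adjusted p = 0.0722). That missed the threshold, but 1 bone marker was called higher with DESeq2, with scaling by total counts alone and with every gene that had a count kept.

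Tail tendon expressed the antagonists at very different levels. To compare genes, CPM was divided by the length of each gene's merged exons in kilobases. Wif1 led with 228 ± 3.95 CPM per kilobase (SD, n = 3) in WT tendons, followed by Dkk3 with 48.1 ± 15.4, Sfrp5 with 12.5 ± 3.83 and Dkk2 with 8.03 ± 0.829 (SD, n = 3 each, same scale). Sfrp4 (0.746 ± 0.0644), Sfrp2 (0.515 ± 0.240), Sfrp1 (0.407 ± 0.205) and Frzb (0.403 ± 0.119) formed a low group, all in CPM per kilobase (SD, n = 3), and Dkk1 and Sost were at 0 in WT. Wif1 and Dkk3 were apart from each other and from all lower members in every WT library. The ranges of Sfrp5 and Dkk2 overlapped, so their order was not resolved. Within the low group the range of Sfrp2 overlapped those of Sfrp4, Sfrp1 and Frzb, and the ranges of Sfrp1 and Frzb overlapped each other, so the place of Sfrp2 and the order of Sfrp1 and Frzb were not resolved either.

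In Mkx-/- tendons the first 5 places by mean were held in the same order, by Wif1 at 249 ± 31.9, Dkk3 at 49.7 ± 10.7, Sfrp5 at 25.9 ± 11.8, Dkk2 between 5.71 and 8.60 and Sfrp4 at 2.06 ± 0.586 CPM per kilobase (SD, n = 3). Here the lowest Sfrp5 library, at 15.0 CPM per kilobase, lay above the highest Dkk2 library, at 8.60, so these neighbours no longer overlapped. The lowest Sfrp4 library, at 1.47 CPM per kilobase, lay below the highest Sfrp1 library, at 1.54, so the order of Sfrp4 and Sfrp1 was not resolved. Frzb (0.936 ± 0.363) and Sfrp1 (0.834 ± 0.629) overlapped each other, and Sfrp2 came next at 0.130 ± 0.0764 CPM per kilobase (SD, n = 3).

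**Figure D1:**
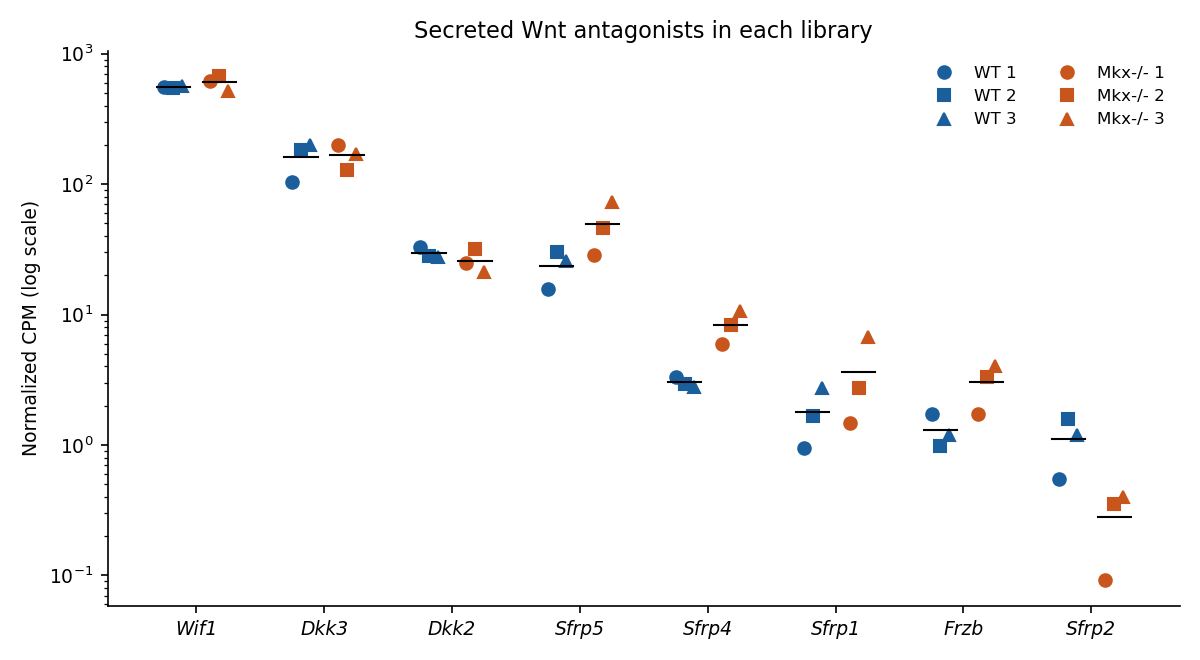
Normalized CPM on a log axis of the 8 members with more than 1 count in all, in each of 3 WT (blue) and 3 Mkx-/- (orange) libraries, with symbols for the replicate number and black lines for group means. Wif1 stands at 521 to 675 CPM in every library, Sfrp4 is higher in all 3 Mkx-/- libraries, and Sfrp2 is lower in all 3.

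The secreted Frizzled-related proteins, which carry a Wnt-binding domain like that of the Frizzled receptors, held the 1 call. In bulk tissue, a change in the number of cells of a type and a change in RNA per cell cannot be told apart. Sfrp4 was the only one of the 10 antagonists called, and it was higher in Mkx-/- tendons. Sfrp5, Frzb and Sfrp1 had fold changes of similar size that did not pass the threshold, and Sfrp2 had fewer reads in Mkx-/- tendons but too few to be tested. Among the 7 tested antagonists, 1 was thus called higher, beside 1.89% of all genes, and 0 lower, beside 1.33%. With an unadjusted edgeR p under 0.05, 3 were higher, beside 12.5% of all genes, and 0 lower, beside 10.1%, and DESeq2 called 2 higher, beside 2.45% of all genes it gave an adjusted p.

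Sfrp4, a secreted Frizzled-related protein also known for its part in phosphate handling and bone thickness, lies on the plus strand of chromosome 13 from 19714973 to 19724863 (mm9). WT replicates 1, 2 and 3 had 42, 30 and 35 counts, and Mkx-/- replicates 1, 2 and 3 had 65, 119 and 135. As normalized levels these were 3.31, 2.94 and 2.80 CPM for WT against 5.95, 8.36 and 10.7 CPM for Mkx-/-. Every Mkx-/- library was above every WT library, and the WT libraries lay close together. The means were 3.02 ± 0.261 and 8.34 ± 2.37 CPM (SD, n = 3 each), or 2.76-fold apart, and the log2 fold change was 1.46 (standard error 0.25, 95% confidence interval 0.89 to 2.04, edgeR adjusted p = 0.0168). Without WT replicate 2 the adjusted p of edgeR was 0.0692, without WT replicate 3 it was 0.0718, without Mkx-/- replicate 2 it was 0.0531 and without Mkx-/- replicate 3 it was 0.0505, so the call was lost in each of these fits. Groups separated in this direction for 14.6% of all tested genes.

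Sfrp5, known as an extracellular Wnt antagonist in fat and the embryonic foregut, lies on chromosome 19 from 42272461 to 42276742 (mm9, minus strand). Its level was 15.8, 29.9 and 25.6 CPM across WT replicates and 28.5, 46.4 and 73.0 CPM across Mkx-/- replicates, from 200 to 921 counts. Mkx-/- replicates 2 and 3 were above all WT libraries, but Mkx-/- replicate 1 was below WT replicate 2, so the groups overlapped. The means of 23.8 ± 7.27 and 49.3 ± 22.4 CPM (SD, n = 3 each) differed by 1.06 on the log2 scale (standard error 0.35, 95% confidence interval 0.26 to 1.85), which missed the threshold with edgeR (adjusted p = 0.116). DESeq2 called Sfrp5 higher, with a log2 fold change of 1.04 and an adjusted p of 0.0226.

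Frzb, first known from developing cartilage and also named Sfrp3, lies on chromosome 2 from 80252127 to 80287782 (mm9, minus strand). WT replicates had 22, 10 and 15 counts and Mkx-/- replicates 19, 47 and 51, or 1.73, 0.981 and 1.20 CPM against 1.74, 3.30 and 4.04 CPM. The groups barely missed overlapping, since Mkx-/- replicate 1 and WT replicate 1 had nearly the same level. The log2 fold change was 1.20 (standard error 0.38, 95% confidence interval 0.32 to 2.09, edgeR adjusted p = 0.109), so no difference was called.

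Sfrp1, a secreted Frizzled-related protein whose loss raises bone mass in mice, lies on the plus strand of chromosome 8 from 24521974 to 24560104 (mm9). Its level was 0.945, 1.67 and 2.72 CPM in WT and 1.47, 2.74 and 6.74 CPM in Mkx-/- libraries, from 12 to 85 counts. The groups overlapped widely, and Mkx-/- replicate 3 alone was far above the rest. The log2 fold change of 1.04 (standard error 0.58, 95% confidence interval -0.29 to 2.36, edgeR adjusted p = 0.336) fell to 0.26 without that library.

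Sfrp2, expressed by fibroblasts of many tissues, lies on the plus strand of chromosome 3 from 83570243 to 83578238 (mm9), and the annotation places the long noncoding RNA Gm16790 over it on the opposite strand. The counts were 7, 16 and 15 in WT and 1, 5 and 5 in Mkx-/- libraries, or 0.551, 1.57 and 1.20 CPM against 0.0916, 0.351 and 0.396 CPM. All Mkx-/- libraries were below all WT libraries, a separation seen in this direction for 13.6% of tested genes. Summed over libraries and scaled to depth, Mkx-/- tendons had 0.271 times the WT level, with a 95% interval of 0.125 to 0.541 that covers counting error only. Sfrp2 fell under the count filter and had no test in the comparison reported here. With every gene that had a count kept, its log2 fold change was -1.88 (standard error 0.63, edgeR adjusted p = 0.0893), and with DESeq2 it was -1.96 (adjusted p = 0.137), so neither passed. How reads from the opposite strand were counted is not given in the sources used here.

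**Figure D2:**
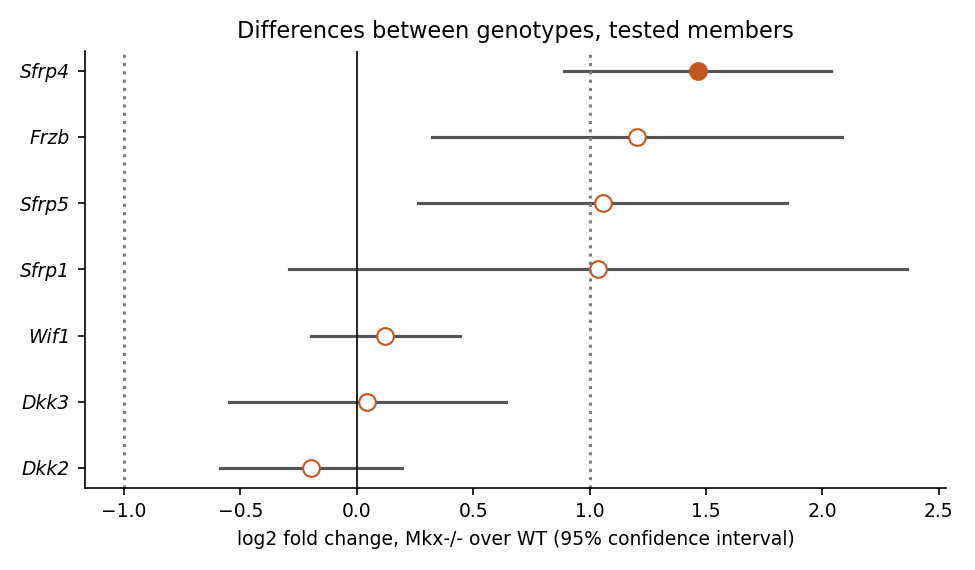
Log2 fold change of the 7 tested antagonists, Mkx-/- over WT, as circles with 95% confidence intervals from edgeR as lines, where dotted lines mark -1 and 1 and the filled circle is the gene past both thresholds. Sfrp4 is filled at 1.46, Frzb, Sfrp5 and Sfrp1 lie between 1.04 and 1.20 with wider intervals, and Wif1, Dkk3 and Dkk2 lie between -0.20 and 0.12.

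The 4 tested secreted Frizzled-related genes had their lowest Mkx-/- value in replicate 1 and their highest in replicate 3. Other measures of these libraries had the same order. Summed over 7 genes, Schwann cell markers, which mark the glia of nerves, stood at 8115 to 10730 CPM in WT and at 12597, 20590 and 23372 CPM in Mkx-/- replicates 1, 2 and 3. Before adjustment all 7 were higher with a p below 0.05, beside 12.5% of all genes, and none was at 0. None was called here, and over 15 other settings 0 to 7 were, with 7 under scaling by total counts alone, 6 without Mkx-/- replicate 1, 3 with every gene that had a count kept and 1 with DESeq2. Summed over 12 genes, endothelial markers, which mark the lining of blood vessels, stood at 85.6 to 105 CPM in WT and at 149, 165 and 225 CPM in the Mkx-/- libraries. Of these, 8 were higher with an unadjusted p below 0.05, 2 were called higher, Erg and Ecscr, and none was at 0. The called genes did not have the order of the sum. Erg stood at 44.1, 37.1 and 26.9 CPM and Ecscr at 20.4, 27.3 and 26.9 CPM in Mkx-/- replicates 1, 2 and 3. The number called was 5 with DESeq2 and under scaling by total counts alone, 6 with every gene that had a count kept, and 2 to 6 over all 15 other settings. Markers of pericytes and smooth muscle stood at 177 to 221 CPM in WT and at 160, 163 and 970 CPM in Mkx-/- libraries, so that replicate 3 alone was high, and 0 of the 7 tested were called. DESeq2 called 1 higher, and the fit with every gene that had a count kept called 4. Skeletal muscle markers, 20 genes of which 6 were called higher (1 to 18 over the other settings), ran the other way, at 3658, 1761 and 839 CPM in Mkx-/- replicates 1, 2 and 3 against 167 to 534 CPM in WT. The tendon marker sum fell in the same order as skeletal muscle, at 340826, 250323 and 245922 CPM in Mkx-/- replicates 1, 2 and 3. So did the epidermal marker sum, at 37.0, 27.5 and 26.3 CPM. The part of these cell types in the antagonist values was not tested.

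**Figure D3:**
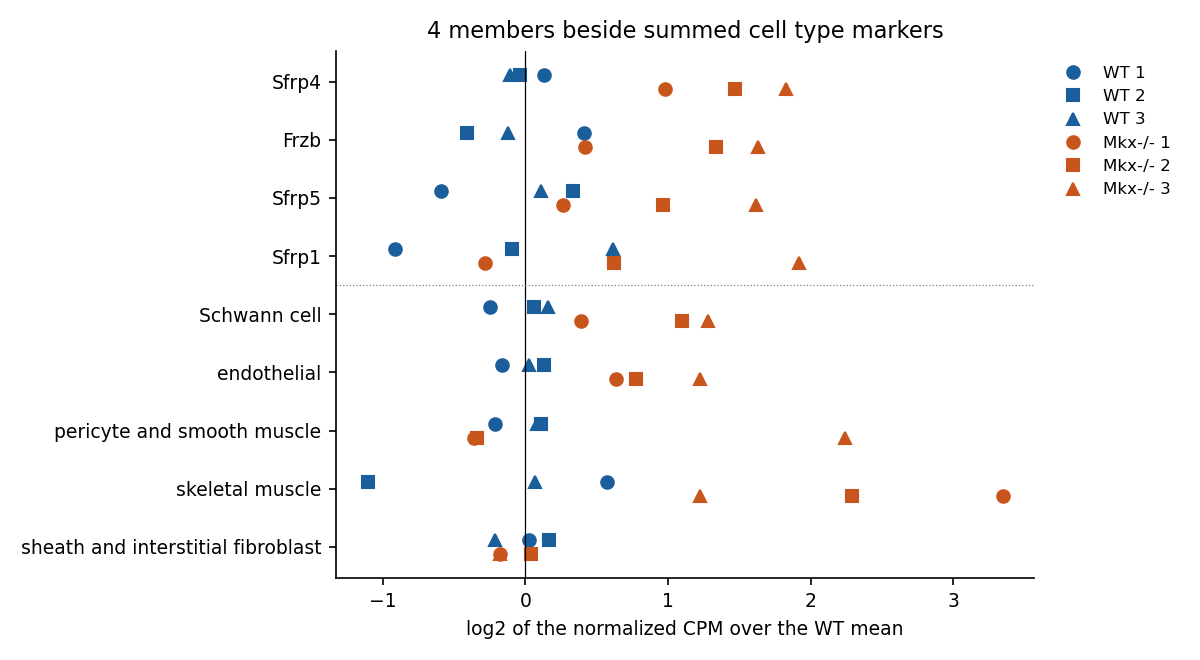
Log2 of normalized CPM over the WT mean for Sfrp4, Frzb, Sfrp5 and Sfrp1 (above the dotted line) and for the summed markers of 5 cell types (below it), in each WT (blue) and Mkx-/- (orange) library. The 4 antagonists, the Schwann cell sum and the endothelial sum rank the Mkx-/- libraries 1, 2, 3 from low to high, the skeletal muscle sum ranks them 3, 2, 1, and the fibroblast sum overlaps between genotypes.

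The other cell type lists, written for cells a tendon sample could hold, are given by their sums and calls. Sheath and interstitial fibroblast markers, 10 genes, overlapped between genotypes at 2489 to 3228 CPM in WT and 2548 to 2963 CPM in Mkx-/- tendons, with Cd44 called higher and Prg4, the lubricin gene, called lower, a call lost under 7 other settings, among them the leaving out of any library but Mkx-/- replicate 2. Cartilage markers, 10 genes, ranged from 545 to 1080 CPM in WT and from 816 to 1325 CPM in Mkx-/- tendons, with Acan, Matn3 and Ucma called higher and Matn1 at 0 in every library. Of 10 tendon markers 3 had fold changes above 0 and 7 below, and their median on the log2 scale was -0.22. With an unadjusted p under 0.05, 2 were higher and 3 lower. Thbs4 was called higher and 0 were called lower, whereas DESeq2 and the fit with every gene that had a count kept each called 3 lower, beside 1.74% and 1.25% of all genes. The 3 with an unadjusted p under 0.05 on the lower side, named after their values were seen, were the tendon transcription factor genes Scx (log2 fold change -1.14, edgeR adjusted p = 0.106) and Egr1 (-1.13, 0.0771) and the collagen gene Col1a2 (-1.02, 0.0933). Among the fits that left out 1 library, the call of Thbs4 was lost without WT replicate 2 or WT replicate 3. Of 9 epidermal markers, at 11.6 to 28.4 CPM in WT and 26.3 to 37.0 CPM in Mkx-/- tendons, Krt17 was called higher. Of 8 leukocyte markers, at 398 to 446 CPM in WT and 259 to 311 CPM in Mkx-/- tendons, 6 were tested. All 6 were lower with an unadjusted p under 0.05, beside 10.1% of all genes. Emr1 was called lower, a call lost under scaling by total counts alone and without Mkx-/- replicate 2. Cd3e was at 0 in every library, and of 5 adipocyte markers 0 were called.

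The Dickkopf genes gave no call. Dkk3 lies on chromosome 7 from 119259533 to 119302571 (mm9, minus strand). Its level was 103, 181 and 200 CPM across WT replicates and 201, 129 and 171 CPM across Mkx-/- replicates. The groups overlapped fully and WT replicate 1 was the lowest library. The log2 fold change was 0.05 (standard error 0.26, 95% confidence interval -0.55 to 0.64, edgeR adjusted p = 0.946), and without WT replicate 1 it was -0.20.

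Dkk2, an Lrp-binding antagonist that can also act as a weak agonist, lies on the plus strand of chromosome 3 from 131748256 to 131843257 (mm9). Its levels were 33.2, 28.4 and 27.5 CPM in WT and 24.7, 31.8 and 21.1 CPM in Mkx-/- libraries. The groups overlapped, with Mkx-/- replicate 2 among the WT values and the other two Mkx-/- libraries below them. The log2 fold change was -0.20 (standard error 0.17, 95% confidence interval -0.59 to 0.19, edgeR adjusted p = 0.542), and its sign turned to 0.05 when libraries were scaled by total counts alone, a scaling that moved the median of all genes to 0.25.

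Dkk1, a strong inhibitor of canonical Wnt signalling and of bone formation, at 30620353 to 30624155 of chromosome 19 (mm9, minus strand), had 0 counts in all 6 libraries. Sost, at 101823772 to 101828329 of chromosome 11 (mm9, minus strand), had 0 counts in 5 libraries and 1 count in Mkx-/- replicate 3. A count of 0 allows a level of up to 3 counts, or 0.211 to 0.294 CPM depending on the library. Expression under that level was not excluded by a count of 0 in 1 library. Neither was tested.

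Wif1, which binds Wnt proteins through its WIF domain, lies on the plus strand of chromosome 10 from 120471016 to 120537706 (mm9). Its level was 557, 544 and 563 CPM across WT replicates and 616, 675 and 521 CPM across Mkx-/- replicates, from 5542 to 9601 counts. The WT libraries lay within a narrow band, and the Mkx-/- libraries fell on both sides of it. The means were 554 ± 9.59 and 604 ± 77.4 CPM (SD, n = 3 each). The log2 fold change was 0.12 (standard error 0.14, 95% confidence interval -0.20 to 0.44, edgeR adjusted p = 0.658), an interval that leaves out a change of 1 on the log2 scale in either direction. By WT mean CPM, Wif1 was at percentile 99.3 of the tested genes, Dkk3 at 96.8, Dkk2 at 73.0, Sfrp5 at 67.5, Sfrp4 at 20.6, Sfrp1 at 12.5 and Frzb at 8.09.

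Per exon length, Wif1 thus made up most of the antagonist transcripts in both genotypes. Its share of the summed CPM per kilobase was 76.5% ± 4.87 (SD, n = 3) in WT and 74.0% ± 5.39 (SD, n = 3) in Mkx-/- tendons. Dkk3 followed with 15.9% ± 4.31 and 14.9% ± 3.58 (SD, n = 3 each). Sfrp5 held 2.97, 5.19 and 4.29% across WT replicates and 4.44, 6.91 and 12.2% across Mkx-/- replicates, with the lowest Mkx-/- library inside the WT range. The 5 secreted Frizzled-related genes together summed to 10.1, 17.9 and 15.7 CPM per kilobase in WT and 17.4, 28.3 and 44.0 in Mkx-/- libraries, so that the lowest Mkx-/- library fell just below the highest WT library. The sum of all 10 antagonists was 299 ± 18.3 CPM per kilobase (SD, n = 3) in WT and 335 ± 19.1 (SD, n = 3) in Mkx-/- tendons. The groups nearly touched, with the highest WT library at 314.75 and the lowest Mkx-/- library at 315.28 CPM per kilobase. The called gene Sfrp4 was 0.251% ± 0.0377 of this sum in WT and 0.619% ± 0.204 in Mkx-/- tendons (SD, n = 3 each).

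**Figure D4:**
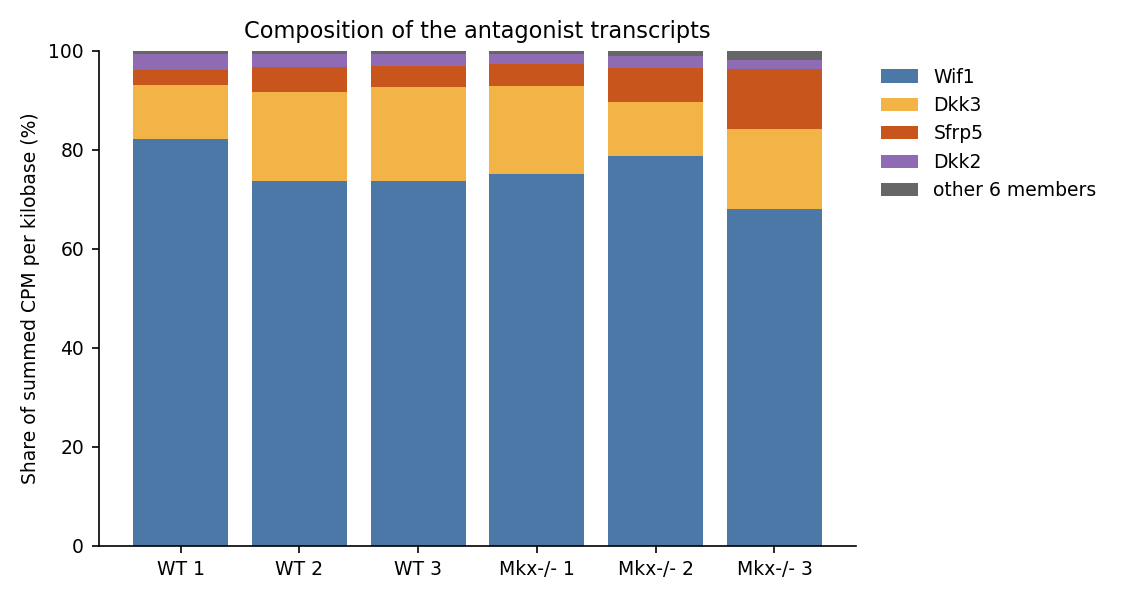
Share of each antagonist in the summed CPM per kilobase of the 10 genes, as stacked bars for each WT and Mkx-/- library. Wif1 takes 68.1 to 82.2% of every bar, and the Sfrp5 band is widest in Mkx-/- replicate 3 at 12.2%.

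The genes around the antagonists were described by lists of pathway roles. Of 13 other secreted Wnt modulators 5 were tested and 1 was called, Sostdc1, which encodes a relative of sclerostin that binds Lrp co-receptors and bone morphogenetic proteins. Sostdc1 had 77, 84 and 135 counts in WT and 165, 264 and 359 counts in Mkx-/- libraries, all above WT, and rose from 8.38 ± 2.38 to 20.7 ± 6.93 CPM (SD, n = 3 each; log2 fold change 1.31, standard error 0.28, edgeR adjusted p = 0.0369). Its Mkx-/- libraries had the order seen for the secreted Frizzled-related genes. Notum, which encodes a secreted enzyme that removes the lipid from Wnts, and Rspo1, which encodes a secreted enhancer of Wnt signalling, were picked after their values were seen. Notum had 0, 1 and 1 counts in WT and 10, 5 and 7 in Mkx-/- libraries and was not tested, and Rspo1 had 1, 2 and 5 counts in WT and 9, 13 and 29 in Mkx-/- libraries (log2 fold change 2.52, edgeR adjusted p = 0.0678).

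Of 19 Wnt ligands, the proteins bound by Wif1 and the secreted Frizzled-related proteins, 9 were tested, 1 was called higher and 2 lower, with a median log2 fold change of -0.21 beside -0.0037 over all tested genes. Wnt16 fell from 14.6 ± 0.573 to 2.14 ± 0.672 CPM (SD, n = 3 each; log2 fold change -2.74, standard error 0.23, edgeR adjusted p = 0.00107). Wnt4 had 17, 10 and 13 counts in WT and 4, 2 and 3 in Mkx-/- libraries (log2 fold change -2.18, edgeR adjusted p = 0.0350). Wnt2 rose from 2.55 ± 0.260 to 5.53 ± 1.14 CPM (SD, n = 3 each; log2 fold change 1.12, edgeR adjusted p = 0.0353). The summed CPM of the ligands overlapped, at 99.3 to 111 in WT and 101 to 109 in Mkx-/- libraries.

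Of 19 receptors, 17 were tested and 1 was called, the Frizzled gene Fzd1. It went up from 91.5 ± 5.89 to 191 ± 42.5 CPM (SD, n = 3 each; log2 fold change 1.06, edgeR adjusted p = 0.0138). The receptors to which Dickkopf proteins and sclerostin bind were picked after their values were seen. Their log2 fold changes were -0.09 for Lrp5, -0.01 for Lrp6, -0.17 for Lrp4 and 0.53 for Kremen1, with edgeR adjusted p-values of 0.818, 0.975, 0.522 and 0.107. The median over the tested receptors was 0.06.

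In the beta-catenin relay, which carries the signal inside the cell, 18 of 18 genes were tested and 0 were called, by edgeR or by DESeq2. With an unadjusted edgeR p under 0.05, 1 was higher and 0 lower, beside the 12.5% and 10.1% of all genes, with a median log2 fold change of 0.09. The most abundant were Ctnnb1, the beta-catenin gene, at 285 ± 15.1 and 329 ± 8.09 CPM, and the kinase gene Csnk1d at 117 ± 18.9 and 119 ± 5.51 CPM (WT first, SD, n = 3 each). Of 14 target and feedback genes of the pathway, 11 were tested, 2 were called higher and 1 lower, with a median of 0.28. With an unadjusted edgeR p under 0.05, 4 were higher and 3 lower, beside the same shares of all genes. The R-spondin receptor genes Lgr5 and Lgr6 rose, from 0, 6 and 10 counts to 161, 126 and 198 counts for Lgr5 (log2 fold change 4.81, edgeR adjusted p = 0.00364) and from 9, 18 and 20 counts to 117, 83 and 118 counts for Lgr6 (log2 fold change 2.67, edgeR adjusted p = 0.00652). Tnfrsf19 fell from 7.31 ± 2.33 to 1.51 ± 0.280 CPM (SD, n = 3 each; log2 fold change -2.25, edgeR adjusted p = 0.0062). Axin2, a feedback gene widely read as a measure of canonical signalling and picked here after its values were seen, was at 19.6 ± 1.78 CPM without and 20.0 ± 3.08 CPM with the knockout (SD, n = 3 each), and its log2 fold change was 0.03 with a 95% confidence interval of -0.31 to 0.37. Axin2 does not stand for the list. Nkd2 and Apcdd1, likewise picked after their values were seen, had log2 fold changes of 0.98 and -0.36. Neither was called (edgeR adjusted p = 0.105 and 0.168).

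Of these 8 calls, those of Wnt16 and Tnfrsf19 held in 15 of 15 other settings and those of Lgr5 and Lgr6 in all 14 settings that gave them a value, while the call of Fzd1 held in 12, that of Sostdc1 in 11, that of Wnt2 in 9 and that of Wnt4 in 6 of 14. Sostdc1, which stood nearest the antagonists in role, lost its call without WT replicate 2 (edgeR adjusted p = 0.118), WT replicate 3 (0.0611), Mkx-/- replicate 2 (0.0801) or Mkx-/- replicate 3 (0.0971), the libraries whose loss also ended the call of Sfrp4. Wnt2 and Wnt4 lost theirs in 5 and 6 of the 6 leave-one-out fits, with edgeR adjusted p-values of up to 0.119 and 0.126. Fzd1 lost it without WT replicate 2 (0.0610) or WT replicate 3 (0.0728), and without Mkx-/- replicate 2 its log2 fold change was 0.88.

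**Figure D5:**
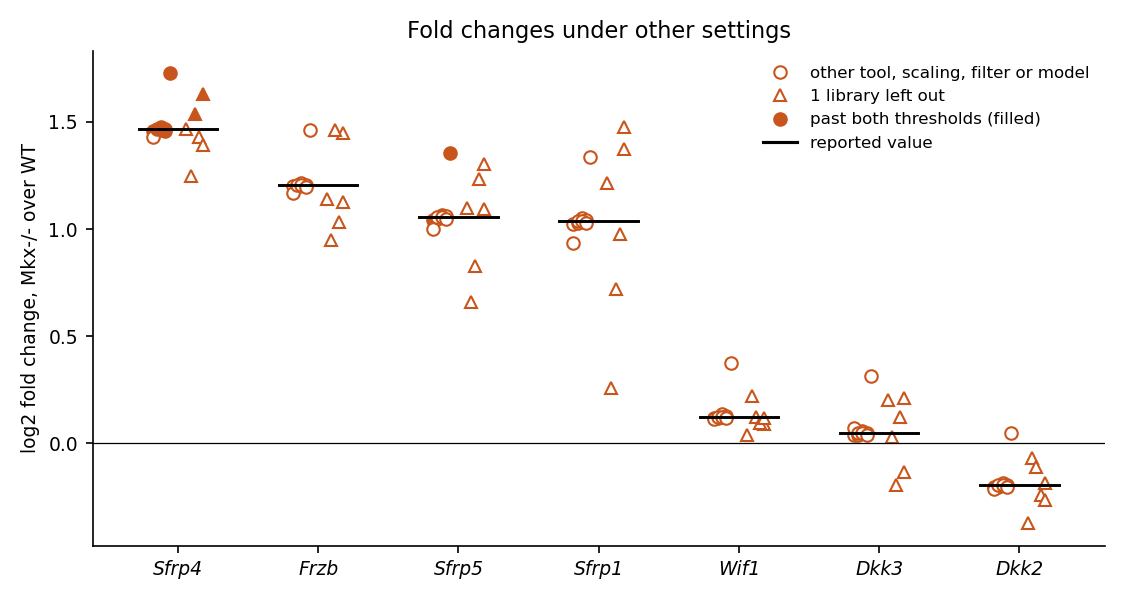
Log2 fold change of the 7 tested antagonists under 15 other settings, with circles for another tool, scaling, filter or model, triangles for fits with 1 library left out, filled symbols for settings past both thresholds and black lines for the reported values. Sfrp4 keeps a value between 1.25 and 1.73 and is past the thresholds in 10 settings, Sfrp5 is past them in 3, and Sfrp1 drops to 0.26 in 1 fit.

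Over those settings the log2 fold change of Sfrp4 ran from 1.25 to 1.73, that of Frzb from 0.95 to 1.46, that of Sfrp5 from 0.66 to 1.35 and that of Sfrp1 from 0.26 to 1.48, so all 4 stayed above 0 in every setting. Relative to the shifted median of all genes under scaling by total counts, the values were 1.48, 1.21, 1.10 and 1.09. Wif1 stayed between 0.04 and 0.37. Sfrp5 was past the thresholds under that scaling, where 4.89% of genes were called higher, and with every gene that had a count kept, where 2.10% were.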

How the data were processed

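Tail tendon RNA of 3 WT and 3 Mkx-/- samples was sequenced on the Ion Proton system. The authors removed adaptor sequences and poor reads, aligned the rest to mm9 with MapSplice, and deposited counts of reads for each gene symbol, unnormalized. The counting program, its annotation and its treatment of strand are not given in the sources used here. The labels matched all 6 columns to samples.

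From these counts, edgeR 4.0.16 in R 4.3.3 was run over all genes passing filterByExpr (14550 of 44788), with TMM normalization, a quasi-likelihood fit on genotype and Benjamini-Hochberg adjustment over all of them. The thresholds are those of the published methods, whose tool, DESeq2 (version 1.42.0 here), was an alternative. Fold changes have a prior count of 0.125, and the common biological coefficient of variation was 0.196. An exact two-sided permutation test of 3 against 3 libraries cannot give a p below 0.1, so none was used. Depths of 10835070 to 14160301 counts leave members with about 10 counts with a large counting error. Positions and exon lengths come from the GENCODE annotation of mm9. The model was checked on simulated data. Replicates differed beyond counting noise (chi-square over its degrees of freedom 7.59 to 36.4), so no library was counted as a repeat.

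The 10 antagonists and all gene lists were chosen with earlier results of these data known. The text names the 10 antagonists, Mkx, and from each list the called genes, those at 0 in every library among cell type markers, and the 2 most abundant where a pathway list had no call. Single genes outside this rule are said to have been picked after their values were seen, as were Ddx3y and Myh11. Alternatives were DESeq2, RLE, upper-quartile and library-size scaling, filters of 1 count in any and 10 counts in every library, a robust fit, removal of skeletal muscle markers, a replicate block, and each library left out.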

Additional observations from a re-analysis of the deposited data

How the results depend on the processing

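Sfrp4 kept its direction in all 15 settings and its call in 10. With the replicate number as a block (replicate block) its log2 fold change was 1.43 (edgeR adjusted p = 0.0512), and with 1 library left out it ran from 1.25 to 1.63, with 2 of 6 fits called. Its adjusted p ranged from 0.000254 with DESeq2 to 0.0718. Sfrp5 gained a call with DESeq2 (1.04), with scaling by library size only (1.35) and with 1 count in any library required (1.07), and ran from 0.66 to 1.30 with 1 library left out. Frzb and Sfrp1 gained none, the lowest adjusted p being 0.0584 for Frzb, and Mkx was called in all 15. The value of Dkk2 was 0.050 under library size only, and that of Dkk3 came to -0.20 when WT replicate 1 was left out and to -0.13 when Mkx-/- replicate 1 was, within a range of -0.20 to 0.21 over the fits that leave out 1 library. Neither was called in any setting.

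The number of antagonists called higher was 2 with DESeq2, library size only and 1 count in any library, 0 with the replicate block, and 0 to 1 with 1 library left out. The replicate block also ended the call of the tendon marker Thbs4. All genes called higher numbered 711 under library size only and 541 with 1 count in any library, against 275, and those called lower 322 with 1 count in any library, against 193. Leaving out 1 library gave 103 to 321 higher and 112 to 248 lower, lowest without WT replicate 3, and without WT replicate 2, Mkx-/- replicate 2 and Mkx-/- replicate 3 the higher genes were 119, 155 and 177. Without length scaling the share of Wif1 in WT was 71.6%, those of Dkk3 were 20.6% in WT and 19.5% in Mkx-/- tendons, and that of Sfrp5 in WT was 3.03%. Of 476 counts of calls in the gene lists over the settings, 398 stayed within 1.5 times. Same-numbered libraries did not deviate together (correlations of 0.03, -0.21 and 0.30), so the numbers were not taken as pairs. Counting error limits Sfrp2, Frzb, Sfrp1 and Sfrp4, and depth sets the floor for Dkk1 and Sost.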
